A study of Mus musculus with 12 samples.

Results

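Regulated exocytosis is the release of hormone or transmitter stored in vesicles when calcium enters a secretory cell. The 42 genes described here encode its core machinery: SNARE proteins, synaptotagmins, regulators of SNARE assembly, Rab GTPases with their effectors, vesicle membrane proteins and the factors that recycle SNARE complexes. They were chosen by name from a list of this machinery, with earlier results of these data known. A probe set on the array was annotated to 41 of the 42 genes, out of 19505 genes measured, and each of the 41 had a single probe set; Syt5 had none.

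The tissue was the dissected adrenal medulla. Transcripts were measured on Affymetrix mouse arrays, 1 for each of 12 male C57Bl6 mice, with 3 animals in each of 4 groups. Colonized mice had the usual gut microbiota, whereas the germ-free animals lived without gut microbes. After a fast of 3 h every animal was injected intraperitoneally with saline or with human insulin at 2 IU/kg, and the medullae were taken 90 min later. The groups were colonized saline (animals 1 to 3), colonized insulin (animals 4 to 6), germ-free saline (animals 7 to 9) and germ-free insulin (animals 10 to 12), and values below are given in that order. The labels name no engineered allele in any of the 12 animals, and no age is stated.

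Chromaffin cells of the adrenal medulla store adrenaline and noradrenaline in dense core granules and release them when splanchnic nerve activity opens calcium channels. A vesicle SNARE (a VAMP) and plasma membrane SNAREs (a syntaxin and a SNAP25-type protein) zip together to pull the membranes into contact, synaptotagmins sense the calcium, complexins and priming factors hold the complex ready, and Rab3 and Rab27 proteins bring granules to the membrane. Insulin lowers blood glucose, which is a classical stimulus for adrenaline release.

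The start regions of 4 members are shown beside the values of their genes. Neuronal genes are often silenced in other tissues through the repressor REST, which binds the RE1 element, while the CRE binds cyclic AMP-responsive factors and the GC box binds Sp1-type factors. Windows of 300 bases around annotated starts (250 before, 50 after) were taken from RefSeq on build GRCm38.p6 for 33 of the 41 members, 45 windows in all. The left arm of RE1, TTCAGCACC, was searched on both strands and lay in 0.371% of 32851 windows of all genes; among the members it lay in those of Syn1 and Unc13a. The CRE, TGACGTCA, lay in 1.79% of all windows and in those of Syn1 and Napa. The GC box, GGGCGG or its complement CCGCCC, lay in 35.7% of all windows and in 57.8% of the member windows, and the E-box CACGTG in 7.15% and 13.3%. A match is a description of letters and not a binding site. The 250 bases before the start are printed 5′ to 3′ on the gene's strand, with capitals marking these motifs, for Syn1, which holds both the RE1 arm and the CRE, and for Syt11, Rab3d and Sv2a, which have a single annotated start and were lower in germ-free mice after both treatments (below).
Syn1 (chrX:20920919-20921168, minus strand, RE1 arm from base -232 and CRE from base -159): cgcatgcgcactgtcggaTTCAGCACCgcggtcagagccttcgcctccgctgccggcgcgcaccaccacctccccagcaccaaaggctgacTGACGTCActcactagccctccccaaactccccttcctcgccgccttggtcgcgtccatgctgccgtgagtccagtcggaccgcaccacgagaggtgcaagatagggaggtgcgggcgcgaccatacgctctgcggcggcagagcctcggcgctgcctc
Syt11 (chr3:88772600-88772849, minus strand, GC boxes from bases -82 and -48): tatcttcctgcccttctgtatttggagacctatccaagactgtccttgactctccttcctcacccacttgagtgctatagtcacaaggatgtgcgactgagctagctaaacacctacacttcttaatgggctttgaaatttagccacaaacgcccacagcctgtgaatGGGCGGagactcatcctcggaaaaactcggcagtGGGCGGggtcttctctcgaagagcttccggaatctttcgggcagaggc
Rab3d (chr9:21918184-21918433, minus strand, GC boxes from bases -194 and -31): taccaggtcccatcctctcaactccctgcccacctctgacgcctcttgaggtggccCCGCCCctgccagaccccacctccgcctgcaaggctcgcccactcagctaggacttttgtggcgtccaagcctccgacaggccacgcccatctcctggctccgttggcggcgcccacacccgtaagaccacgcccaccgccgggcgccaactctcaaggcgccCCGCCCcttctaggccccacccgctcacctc
Sv2a (chr3:96180977-96181226, plus strand, GC box from base -154): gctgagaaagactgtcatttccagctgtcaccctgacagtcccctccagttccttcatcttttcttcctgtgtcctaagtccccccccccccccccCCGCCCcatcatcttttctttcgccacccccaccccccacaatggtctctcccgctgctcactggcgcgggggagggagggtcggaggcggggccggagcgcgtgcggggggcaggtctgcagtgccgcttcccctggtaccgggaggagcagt
All 4 stretches lie just upstream of the annotated transcription start, outside the transcript.

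Values are log2 intensities as deposited, so a difference of 1 is a 2-fold difference in intensity, and levels of different genes are not set against each other. Markers of the labelled tissue were well expressed: 11 chromaffin markers, including the catecholamine-making enzymes Th, Dbh and Pnmt, averaged 10.66 to 11.31 in colonized animals and 9.78 to 10.77 in the germ-free ones. Markers of other tissues were also present, with 10 adrenal cortex markers at 12.24 to 12.74 on all arrays. Adipocyte markers ranged from 6.72 to 10.86, intestinal markers were at 7.08 to 9.02 in the germ-free saline animals, where the other arrays had 4.91 to 5.19, and pituitary markers were at 6.77 to 7.71 in the germ-free insulin animals against 5.13 to 5.75 elsewhere. Colonized saline animal 2 stood apart: its neuron markers (such as Prph and Stmn2) averaged 9.59 against 6.94 to 7.56 in the other colonized animals. Its 8 liver markers averaged 10.59 against 5.47 to 7.19 in the other colonized animals, where the germ-free animals had 6.36 to 10.06. Its chromaffin (10.66) and cortex (12.24) marker levels were the lowest of the colonized animals. In animal 2, 9 members lay more than 1 above the mean of animals 1 and 3. Negative control probe sets also differed by colonization state, with array medians of 4.70 to 4.83 in colonized animals and 5.30 to 5.54 in the germ-free ones, so the array background and the colonization state cannot be told apart. Above the 95th percentile of these controls, 17 members lay on all 12 arrays, 19 on some and 5 (Cadps2, Rab27b, Rims1, Rph3a and Sv2b) on none.

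**Figure D1:**
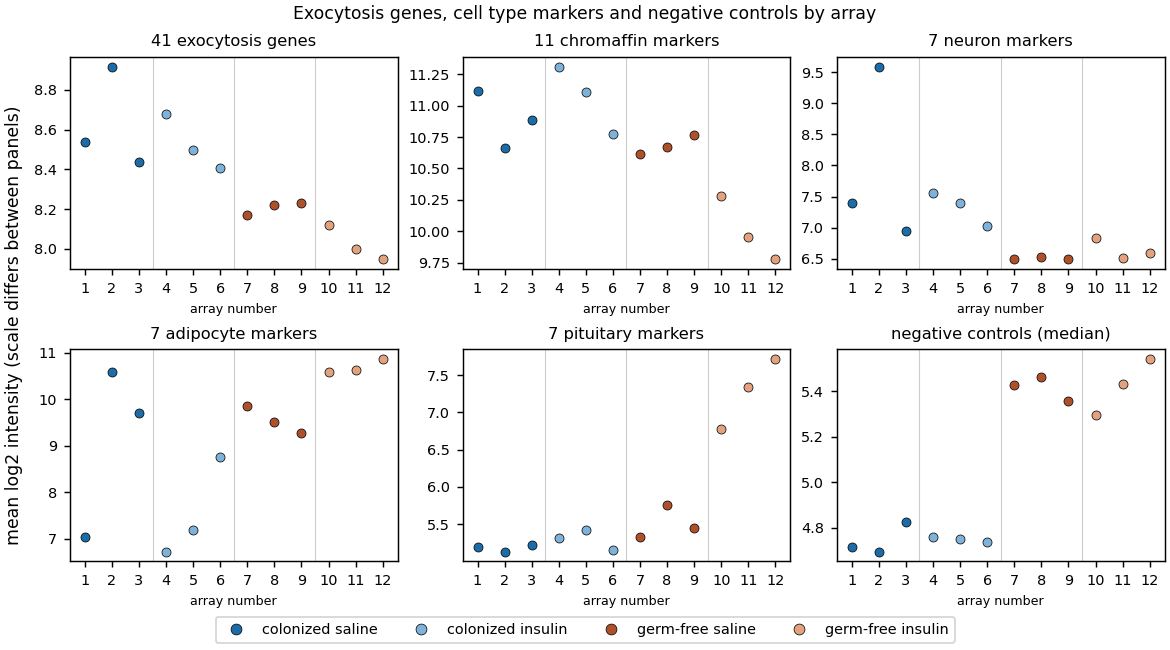
Mean log2 intensity (y axis, scale differs between panels) of the 41 exocytosis genes, of chromaffin, neuron, adipocyte and pituitary markers, and the median of the negative controls, for each of the 12 arrays (x axis), with colours for the 4 groups. The mean of the exocytosis genes was 8.41 to 8.92 in colonized animals and 7.95 to 8.23 in the germ-free ones, animal 2 was highest for the exocytosis genes and the neuron markers, and the negative controls were higher on every germ-free array.

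Much of this machinery was measured at lower levels on the arrays of germ-free than on those of colonized mice. Averaged over both treatments, 20 of the 41 members were lower in germ-free mice and 1, Nsf, was higher at an adjusted p under 0.05 (limma, adjusted over 19572 probe sets), which is 51.2% of the members where 17.6% of all genes passed (11.5% lower). The median change of the members was -0.52, against -0.03 for all genes, and 33 of the 41 lay below 0. In 12 members all 6 germ-free animals were below all 6 colonized animals, as in 5.51% of all genes, and Nsf was the 1 member with all 6 above; groups without overlap in either direction were seen in 8.02% of all genes. Without animal 2 the count was again 21, with the same 21 genes, where 25% of all genes passed. In fits that each leave 1 of the 12 animals out, 17 of the 21 passed every time, whereas Syt7 passed in 10, Syt1 and Syt9 in 5 and Cadps in 3. In pieces of tissue, fewer cells of a type and less RNA per cell cannot be told apart. Nor can the higher negative controls of the germ-free arrays be told apart from the state, and markers of other tissues differed too (below).

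Markers of several cell types differed in the same contrast. All 11 chromaffin markers lay below 0 (median -0.59, 8 lower at the threshold), as did all 7 neuron markers (median -1.01, 3 lower) and all 6 glial markers (median -0.56, 3 lower). Adipocyte markers had a median of 1.25 (3 of 7 higher), liver markers 1.31 (all 8 above 0, 1 called), intestinal markers 1.59 (7 of 8 higher) and pituitary markers 0.63 (6 of 7 higher). Of the 10 cortex markers 9 lay above 0 (median 0.17, 2 higher), and without animal 2 their median was 0.04 with 3 called. Without animal 2, all 11 chromaffin markers were called (median -0.75), as were 5 of 7 neuron (median -0.64), all 7 adipocyte (median 1.52) and all 8 liver markers (median 2.01). With the chromaffin marker level of each array in the fit, 0 of the 41 members passed (0.082% of all genes did). With the neuron markers 13 members passed (17.8% of all genes), with the adipocyte markers 12 (6.98%) and with the cortex markers 6 (11%). Neuron marker levels did not overlap between the states (6.94 to 9.59 in colonized, 6.49 to 6.83 in germ-free animals). Nor did cortex marker levels (12.24 to 12.65 and 12.68 to 12.74), so these fits cannot fully separate those markers from the state. The negative control level, which did not overlap either, left 0 members and 0 of all genes, and 16 of the 41 members then lay below 0 in place of 33. This level correlated with the germ-free state at r = 0.983, so the fit cannot separate the controls from the state. The part of cell makeup and of the negative control shift in these changes was not tested beyond these fits.

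**Figure D2:**
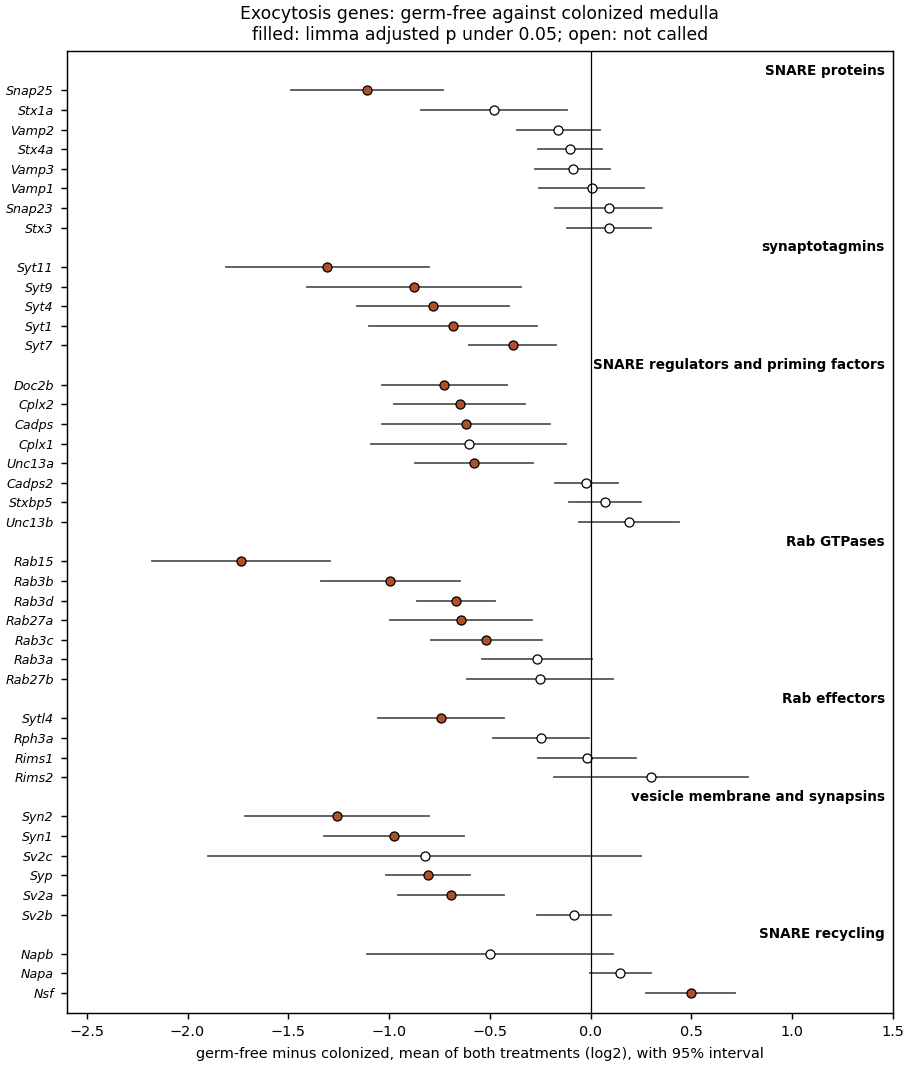
Germ-free minus colonized log2 difference, averaged over both treatments (x axis), for the 41 exocytosis genes (y axis), grouped by role; bars are 95% intervals, filled points have an adjusted p under 0.05. All 5 synaptotagmins are filled and lie left of 0, 7 of 8 SNARE proteins are open, and Nsf is the 1 filled point right of 0.

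Among the 8 SNARE proteins, which fuse the membranes, 1 fell. Snap25, the plasma membrane SNARE of neurons and chromaffin cells, was at 11.48, 11.77 and 11.26 in the colonized saline, 11.97, 11.60 and 11.40 in the colonized insulin, 10.76, 10.75 and 11.14 in the germ-free saline and 10.63, 9.97 and 9.57 in the germ-free insulin animals. All germ-free animals lay below all colonized ones, and the germ-free insulin animals were lowest. Its change averaged over treatments was -1.11 ± 0.17 (SE, adjusted p = 0.00161), a level of 0.464 times that of colonized mice. The other 7 (Snap23, the broadly expressed relative of Snap25; the syntaxins Stx1a, Stx3 and Stx4a; and the vesicle SNAREs Vamp1, Vamp2 and Vamp3) had mean changes between -0.48 and 0.09 and none passed. Vamp2, the main vesicle SNARE of regulated release, was at 9.66, 10.03 and 9.59 (saline) and 9.79, 9.62 and 9.42 (insulin) in colonized and at 9.51, 9.54 and 9.73 (saline) and 9.47, 9.45 and 9.44 (insulin) in germ-free animals, with the 2 states overlapping. Stx1a, the syntaxin that pairs with Snap25, was at 6.60, 7.68 and 6.98 in the colonized saline, 7.02, 6.87 and 6.40 in the colonized insulin, 6.20, 6.46 and 6.52 in the germ-free saline and 6.60, 6.37 and 6.51 in the germ-free insulin animals; animal 2 was highest and the 2 states overlapped.

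All 5 measured synaptotagmins, the vesicle proteins that include the calcium sensors of release, were lower in germ-free mice. Syt11, an atypical member that does not act as a calcium sensor, was at 8.68, 9.86 and 8.26 in the colonized saline, 8.85, 8.53 and 7.99 in the colonized insulin, 7.56, 7.64 and 7.55 in the germ-free saline and 7.40, 7.05 and 7.13 in the germ-free insulin animals. It changed by -1.31 ± 0.23 (SE, adjusted p = 0.00322), and the highest germ-free animal was below the lowest colonized one. Syt9, a calcium sensor of dense core granules, was at 6.84, 8.44 and 6.66 (saline) and 7.06, 7.07 and 6.91 (insulin) in colonized and at 6.27, 6.26 and 6.37 (saline) and 6.44, 6.33 and 6.05 (insulin) in germ-free animals, with animal 2 well above the other colonized animals. Its change was -0.88 ± 0.24 (SE, adjusted p = 0.0276) and became -0.59 ± 0.09 (adjusted p = 0.000678) without animal 2. Syt9 was dim, above the 95th percentile of the negative controls on 1 of 12 arrays, that of animal 2.

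Syt4, an atypical member found on dense core granules and Golgi membranes, was at 9.84, 10.45 and 9.45 in the colonized saline, 10.23, 9.83 and 9.43 in the colonized insulin, 9.16, 9.11 and 8.92 in the germ-free saline and 9.37, 8.96 and 9.02 in the germ-free insulin animals. The states did not overlap, and the change was -0.78 ± 0.17 (SE, adjusted p = 0.00969). Syt1, the fast calcium sensor, was at 10.98, 12.00 and 10.70 (saline) and 11.00, 10.63 and 10.51 (insulin) in colonized and at 10.67, 10.49 and 10.71 (saline) and 10.24, 9.86 and 9.76 (insulin) in germ-free animals. The states overlapped, with the germ-free saline animals close to the colonized insulin animals and the germ-free insulin animals lowest. Its change was -0.68 ± 0.19 (SE, adjusted p = 0.0294), and -0.49 ± 0.12 (adjusted p = 0.0107) without animal 2. Syt7, the high-affinity sensor of slow release, was at 9.03, 8.54 and 9.02 in the colonized saline, 9.56, 9.48 and 9.23 in the colonized insulin, 8.79, 8.87 and 8.75 in the germ-free saline and 8.82, 8.69 and 8.61 in the germ-free insulin animals, with the highest values in the colonized insulin animals. It had the smallest mean change of the 21 called genes, -0.39 ± 0.10 (SE, adjusted p = 0.0201).

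Of the 8 regulators of SNARE assembly and priming factors, 4 were lower in germ-free mice and 0 higher. Doc2b, a high-affinity calcium-binding regulator, was at 8.65, 9.20 and 8.47 in the colonized saline, 9.08, 8.70 and 8.37 in the colonized insulin, 7.86, 8.11 and 8.23 in the germ-free saline and 8.05, 7.95 and 7.93 in the germ-free insulin animals. All germ-free animals lay below all colonized ones, with a change of -0.73 ± 0.14 (SE, adjusted p = 0.00552). Cplx2, a complexin that clamps assembled SNARE complexes, was at 8.60, 9.35 and 8.37 (saline) and 8.51, 8.10 and 8.24 (insulin) in colonized and at 7.98, 8.13 and 8.07 (saline) and 7.92, 7.63 and 7.55 (insulin) in germ-free animals, and the states overlapped narrowly, at 8.10 (animal 5) and 8.13 (animal 8). Its change was -0.65 ± 0.15 (SE, adjusted p = 0.0117). Unc13a (Munc13-1), which opens syntaxin for priming, was at 7.23, 7.25 and 7.18 in the colonized saline, 7.87, 7.72 and 7.07 in the colonized insulin, 6.79, 7.20 and 6.67 in the germ-free saline and 6.78, 6.80 and 6.60 in the germ-free insulin animals, with an overlap between germ-free animal 8 and colonized animals 3 and 6. The change was -0.58 ± 0.14 (SE, adjusted p = 0.0123).

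Cadps (CAPS1), the priming factor of dense core granules, was at 8.87, 9.78 and 8.46 (saline) and 8.87, 8.37 and 8.52 (insulin) in colonized and at 8.58, 8.38 and 8.67 (saline) and 8.13, 7.70 and 7.70 (insulin) in germ-free animals. The germ-free saline animals lay within the colonized range and the germ-free insulin animals below it. The change was -0.62 ± 0.19 (SE, adjusted p = 0.0434), and -0.43 ± 0.13 (adjusted p = 0.0259) without animal 2. The remaining 4 (Cplx1, another complexin; the SNARE inhibitor tomosyn, Stxbp5; Unc13b, the relative of Unc13a; and Cadps2) ranged from -0.61 to 0.19 and did not pass.

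Rab GTPases, which mark and dock vesicles, were lower for 5 of 7. Rab15, a regulator of endosomal recycling, was at 6.69, 7.90 and 6.62 in the colonized saline, 7.03, 6.71 and 6.68 in the colonized insulin, 5.31, 5.84 and 5.31 in the germ-free saline and 4.73, 5.05 and 4.99 in the germ-free insulin animals. The lowest colonized animal was at 6.62 and the highest germ-free animal at 5.84. The change was -1.73 ± 0.20 (SE, adjusted p = 0.000387), and -1.53 ± 0.12 (adjusted p = 5.41e-05) without animal 2. Rab15 was a dim probe set whose germ-free level was near background, so the size of its change is not exact and is not ranked against other members: it exceeded the 95th percentile of the negative controls on 1 of 12 arrays (animal 2) and their median on 7, all 6 colonized and 1 germ-free. Of the 20 lower members, 9 (Snap25, Syt1, Syt4, Syt7, Rab3b, Rab3c, Rab27a, Syp and Syn2) exceeded that percentile on all 12 arrays. Syt9 exceeded it on 1 array and Unc13a and Sytl4 on 3 each, all colonized, so the sizes of their changes are not exact either. The same limit holds for Syt11, Cplx2, Doc2b, Rab3d, Sv2a and Syn1, which exceeded it on 6 colonized and 0 germ-free arrays. Cadps exceeded it on 9 arrays, 0 of them germ-free insulin. The percentile itself was 7.21 to 7.48 on colonized and 8.23 to 8.41 on germ-free arrays. Stxbp5, which did not pass, also exceeded it on 6 colonized and 0 germ-free arrays.

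Rab3b, a granule-bound Rab3 of secretory cells, was at 10.71, 11.01 and 10.30 (saline) and 10.81, 10.52 and 10.21 (insulin) in colonized and at 9.86, 9.97 and 10.10 (saline) and 9.68, 9.08 and 8.91 (insulin) in germ-free animals. Rab3d, a Rab3 best known from secretory granules of exocrine cells, was at 8.17, 8.06 and 8.21 in the colonized saline, 7.85, 8.15 and 7.87 in the colonized insulin, 7.22, 7.39 and 7.46 in the germ-free saline and 7.20, 7.58 and 7.47 in the germ-free insulin animals. In neither gene did the states overlap; the changes were -0.99 ± 0.16 (SE, adjusted p = 0.00176) for Rab3b and -0.67 ± 0.09 (SE, adjusted p = 0.000706) for Rab3d. Rab27a, which docks granules at the membrane, was at 10.67, 9.54 and 10.39 (saline) and 10.68, 10.36 and 10.33 (insulin) in colonized and at 10.12, 10.06 and 9.99 (saline) and 9.50, 9.31 and 9.13 (insulin) in germ-free animals. Its low colonized value came from animal 2, and the change of -0.64 ± 0.16 (SE, adjusted p = 0.0181) became -0.81 ± 0.10 (adjusted p = 0.000267) without it. Rab3c was at 11.12, 10.55 and 10.72 in the colonized saline, 11.15, 10.80 and 10.55 in the colonized insulin, 10.49, 10.58 and 10.67 in the germ-free saline and 10.25, 9.97 and 9.82 in the germ-free insulin animals, with the germ-free insulin animals lowest, and changed by -0.52 ± 0.13 (SE, adjusted p = 0.0152). Rab3a, the main neuronal Rab3, and Rab27b did not pass, with changes between -0.27 and -0.25.

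One of 4 Rab effectors was lower. Sytl4 (granuphilin), which links Rab27 to syntaxins on granules, was at 7.81, 6.90 and 7.33 (saline) and 7.75, 7.30 and 7.55 (insulin) in colonized and at 7.05, 6.62 and 6.75 (saline) and 6.69, 6.59 and 6.48 (insulin) in germ-free animals. The change was -0.74 ± 0.14 (SE, adjusted p = 0.00503) and -0.85 ± 0.12 (adjusted p = 0.000543) without animal 2, the lowest colonized animal. The active zone scaffolds Rims1 and Rims2 and rabphilin (Rph3a) ranged from -0.25 to 0.30 and did not pass.

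Vesicle membrane proteins and synapsins were lower for 4 of 6. Syp (synaptophysin), an abundant vesicle membrane protein, was at 11.44, 11.57 and 11.35 in the colonized saline, 11.83, 11.53 and 11.36 in the colonized insulin, 10.94, 10.93 and 11.00 in the germ-free saline and 10.68, 10.31 and 10.36 in the germ-free insulin animals. Sv2a, a vesicle glycoprotein, was at 8.34, 8.87 and 8.21 (saline) and 8.61, 8.62 and 8.14 (insulin) in colonized and at 7.79, 7.76 and 7.70 (saline) and 7.74, 7.76 and 7.87 (insulin) in germ-free animals. The germ-free animals of both genes lay in a narrow band below the colonized ones after saline. The changes were -0.81 ± 0.10 (SE, adjusted p = 0.00042) for Syp and -0.69 ± 0.12 (SE, adjusted p = 0.00283) for Sv2a.

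The synapsins tether vesicles to actin. Syn1 was at 8.33, 9.06 and 8.36 in the colonized saline, 9.41, 8.89 and 8.53 in the colonized insulin, 8.03, 7.96 and 8.02 in the germ-free saline and 7.74, 7.38 and 7.61 in the germ-free insulin animals. Syn2 was at 10.52, 11.60 and 10.32 (saline) and 10.91, 10.61 and 10.10 (insulin) in colonized and at 9.55, 9.65 and 9.65 (saline) and 9.53, 9.18 and 8.94 (insulin) in germ-free animals. No germ-free animal reached the colonized range in either gene, and the changes were -0.98 ± 0.16 (SE, adjusted p = 0.002) for Syn1 and -1.26 ± 0.21 (SE, adjusted p = 0.00221) for Syn2. Sv2c was at 8.97 in animal 2 and between 4.85 and 5.49 in all others, so its mean change of -0.82 ± 0.49 (SE, adjusted p = 0.282) became -0.23 ± 0.09 (adjusted p = 0.0784) without that animal; Sv2b, at 4.88 to 5.31, did not pass.

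Of the 3 SNARE recycling factors, 1 was higher in germ-free mice and 0 lower. Nsf, the ATPase that takes spent SNARE complexes apart, was at 9.46, 9.13 and 9.50 in the colonized saline, 9.40, 9.31 and 9.67 in the colonized insulin, 10.12, 10.00 and 9.79 in the germ-free saline and 9.71, 9.83 and 9.99 in the germ-free insulin animals. Every germ-free animal was above every colonized animal, and the change was 0.50 ± 0.10 (SE, adjusted p = 0.00645). Its adaptors Napa and Napb (alpha- and beta-SNAP) did not pass, and Napb, like Sv2c, was high in animal 2 (9.36 against 6.84 to 7.47 elsewhere).

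**Figure D3:**
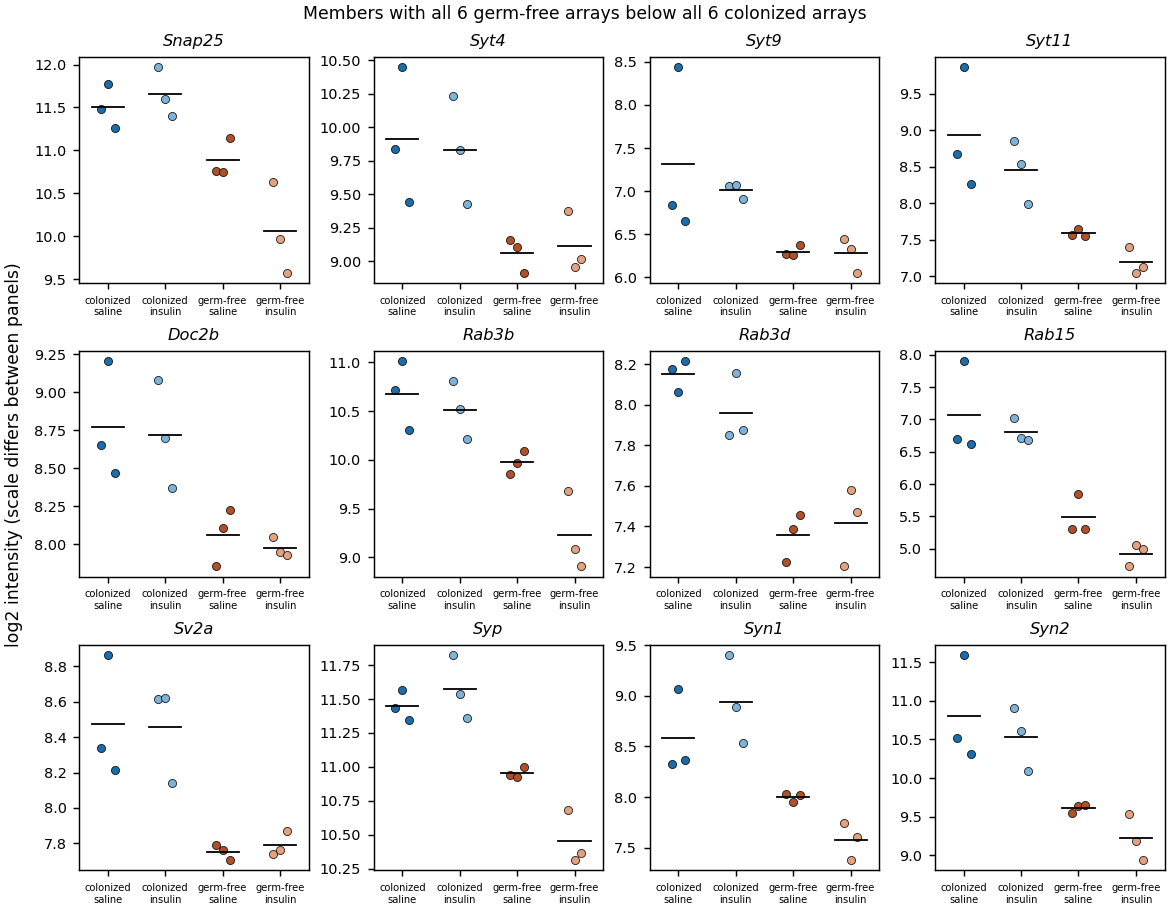
Log2 intensity (y axis, scale differs between panels) of the 12 members in which all 6 germ-free animals lay below all 6 colonized animals; points are animals, lines are group means of 3. The highest point in Syt9, Syt11, Rab15 and Syn2 is animal 2, and so it is in Syt4, Doc2b, Rab3b and Sv2a.

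The comparison of germ-free with colonized mice within a treatment gave fewer calls. After saline, 6 members passed (14.6%, where 6.88% of all genes passed and 4.09% were lower): Rab15 (-1.59 ± 0.29), Syt11 (-1.35 ± 0.33), Syn2 (-1.20 ± 0.30), Rab3d (-0.79 ± 0.13) and Sv2a (-0.72 ± 0.17) were lower and Nsf (0.61 ± 0.14) was higher. The adjusted p was 0.0053 for Rab3d, 0.00942 for Rab15 and 0.0279 to 0.034 for the other 4. The members' median was -0.49, against -0.04 for all genes. Groups did not overlap in 22 members, where 27.3% of all genes showed this. Sv2c, Syt9 and Cplx1 had changes of -1.52 ± 0.70, -1.01 ± 0.34 and -0.91 ± 0.31 and did not pass; without animal 2 they were -0.33 ± 0.13, -0.45 ± 0.13 and -0.46 ± 0.20. Syt11 was -0.88 ± 0.21 without it. Chromaffin markers had a median change of -0.13 with 0 of 11 called, neuron markers -1.46 with 1 of 7, and intestinal markers 3.27 with 7 of 8. Of the 10 cortex markers 9 lay above 0 (median 0.35, 1 called), and all 6 glial markers lay below 0 (median -0.93, 2 called). Their medians without animal 2 were 0.07 for cortex and -0.59 for glial markers, with 2 called in each. Without animal 2 the medians were -0.28 for chromaffin markers (0 called) and -0.57 for neuron markers (2 called), and 6 of 8 liver markers were called (median 2.68), against 0 called and a median of 1.34 with it.

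The saline count depended on single animals. It was 11 without colonized animal 3 (7.2% of all genes passed), 2 without germ-free animal 7 (2.21%) or 8 (2.63%), and 3 without germ-free animal 9 (3.35%). Rab3d and Rab15 passed in all 12 fits that each leave 1 animal out. Without animal 2 the same 6 passed and Syt9 and Sytl4 were added (9.89% of all genes passed), and the median was -0.32. With the cortex markers in the fit 0 members passed (0.825% of all genes). With the neuron markers 2 did, Rab3d and Rab15 (5.11% of all genes), and with the chromaffin markers 3, Rab3d, Rab15 and Sv2a (6.9%), shares near those of all genes. Cortex marker levels did not overlap between the saline groups (12.24 to 12.60 in colonized, 12.72 to 12.74 in germ-free animals). Nor did neuron marker levels (6.94 to 9.59 and 6.49 to 6.53), so the fits with either cannot fully separate the markers from the state. In the 2 saline groups fitted alone 1 passed, a fit for which the share of all genes was not counted.

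After insulin, 15 members were lower in germ-free mice and 0 higher (36.6%, where 7.75% of all genes passed and 5.15% were lower). Snap25 (-1.60 ± 0.24), Syn1 (-1.37 ± 0.23), Syn2 (-1.32 ± 0.30), Rab3b (-1.29 ± 0.22) and Syt11 (-1.27 ± 0.33) had the largest changes among members above the negative control median on all arrays. Rab15 had -1.88 ± 0.29, with 0 of 3 germ-free insulin animals above that median. Rab27a (-1.14 ± 0.23), Syp (-1.12 ± 0.14), Sytl4 (-0.94 ± 0.20), Unc13a (-0.83 ± 0.19) and Rab3c (-0.82 ± 0.18) followed. Doc2b (-0.74 ± 0.20), Syt7 (-0.71 ± 0.14), Sv2a (-0.67 ± 0.17) and Rab3d (-0.54 ± 0.13) had the smallest of the 15. The adjusted p ran from 0.00206 (Syp) to 0.0457 (Doc2b). With dim probe sets left out, 11 of 25 members passed, all lower, where 21.8% of 6228 genes did. The median was -0.35, against -0.03 for all genes, and groups did not overlap in 25 members, where 31.9% of all genes showed this.

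Syt11, Rab3d, Rab15, Sv2a and Syn2 were called after both treatments. All 11 chromaffin markers lay below 0 after insulin (median -1.06, 9 lower), 6 of 7 adipocyte markers were higher (median 2.26) and 5 of 7 pituitary markers were higher (median 1.45). With chromaffin or with adipocyte markers in the fit 0 members passed, where 0.00513% and 0.138% of all genes did. Chromaffin marker levels did not overlap between the insulin groups (10.78 to 11.31 in colonized, 9.78 to 10.28 in germ-free animals). Nor did adipocyte marker levels (6.72 to 8.76 and 10.58 to 10.86), so these fits cannot fully separate the markers from the state. The count was 5 without colonized animal 4 (2.43% of all genes passed) or germ-free animal 12 (2.31%), 6 without germ-free animal 11 (2.67%) and 8 without colonized animal 5 (3.57%). It was 20 without animal 2 (14.6%), which added Syt1, Syt4, Syt9, Cplx2 and Cadps; all 11 chromaffin, all 7 adipocyte and 4 of 7 neuron markers were then called. Snap25, Rab3b, Rab15, Syp and Syn1 passed in all 12 of these fits. That 15 members passed after insulin and 6 after saline does not show that the effects differ: the difference itself is the contrast of the 2 insulin effects, given below, and no member passed in it.

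Insulin gave no called member in either state. In colonized mice 0 of 41 passed at an adjusted p under 0.05 in limma (0.149% of all genes did), and 3 had an unadjusted p under 0.05: Syt7 and Rims1 had values above 0 and Cplx2 below 0. The largest changes were those of Sv2c (-1.31 ± 0.70), Napb (-0.78 ± 0.40), Syt7 (0.56 ± 0.14), Syt1 (-0.51 ± 0.27), Cplx2 (-0.49 ± 0.21) and Rab27b (-0.49 ± 0.24), with adjusted p from 0.182 to 0.477. Without animal 2, Sv2c was at -0.11 ± 0.13, Napb at -0.13 ± 0.15, Syt1 at -0.13 ± 0.18, Cplx2 at -0.20 ± 0.15, Rab27b at -0.17 ± 0.17 and Syt7 at 0.40 ± 0.12, and 16 of the 41 members turned sign, none of these 6 among them. The saline and insulin groups did not overlap in 3 members (14.1% of all genes): Syt7 was higher after insulin, at 9.23 to 9.56 against 8.54 to 9.03, and Rab3a and Sv2b were lower. The members' median was -0.06, and that of all genes 0.00.

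In germ-free mice 0 of 41 passed (0.436% of all genes did), and 8 had an unadjusted p under 0.05, all lower after insulin. Snap25 was at 10.75 to 11.14 after saline and at 9.57 to 10.63 after insulin, with no overlap. The largest differences were Snap25 (-0.83 ± 0.24), Rab3b (-0.75 ± 0.22), Rab27a (-0.75 ± 0.23), Cadps (-0.70 ± 0.27), Syt1 (-0.68 ± 0.27) and Vamp1 (-0.66 ± 0.17), with adjusted p from 0.17 to 0.514. Vamp1 was at 9.34, 9.54 and 9.69 after saline and 8.91, 8.95 and 8.73 after insulin. Groups did not overlap in 19 members, 17 lower and 2 (Vamp3 and Rims2) higher after insulin, where 19.7% of all genes showed no overlap. The median was -0.13 for the members and 0.01 for all genes.

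The germ-free insulin count moved with the fit. Without animal 2, which is in neither of these groups but enters the shared variance, Rab27a (adjusted p = 0.0201) and Vamp1 (adjusted p = 0.0279) passed. With array weights 8 members passed, all of them lower (2.78% of all genes passed), and with neuron or with cortex markers in the fit Syt1 and Cadps did. The shares of all genes without animal 2 and with these markers are not given here. Those calls are therefore not set against a background. Chromaffin markers were lower in the same contrast, all 11 below 0 with a median of -0.57 and 3 called, and so were intestinal markers (median -3.34, 5 of 8 called), while pituitary markers were higher (median 1.66, 4 of 7 called). Their part in the members' values was not tested.

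**Figure D4:**
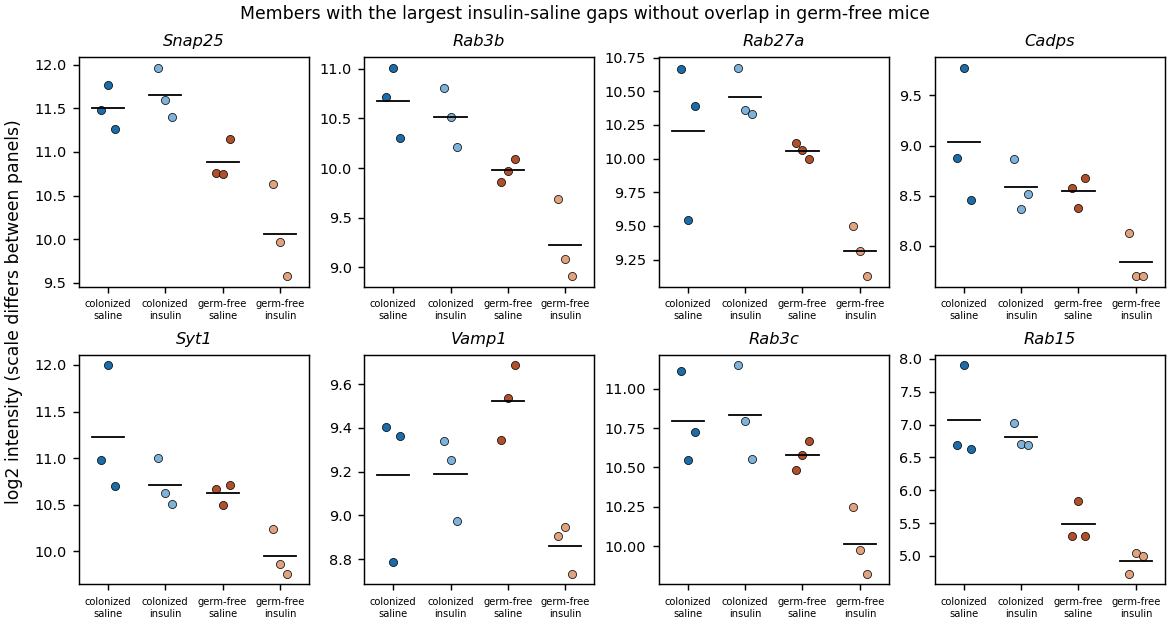
Log2 intensity (y axis, scale differs between panels) in all 4 groups of the 8 members with the largest changes among those whose germ-free saline and insulin animals did not overlap; points are animals and lines are group means of 3. In all 8 the germ-free insulin animals are below the germ-free saline animals, and no such member passed at an adjusted p under 0.05.

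The difference between the insulin effects (germ-free minus colonized) was called for 0 of 41 members in limma, where 0.0359% of all genes passed, and 8 had an unadjusted p under 0.05, 7 lower and 1 (Rab3a) higher. The largest were Sv2c (1.40 ± 0.99), Rab27a (-1.0 ± 0.32), Snap25 (-0.98 ± 0.35), Syn1 (-0.78 ± 0.32), Rab27b (0.71 ± 0.33) and Vamp1 (-0.66 ± 0.24), with adjusted p from 0.346 to 0.673. Without animal 2, Sv2c was at 0.20 ± 0.17, Rab27b at 0.39 ± 0.22, Rab27a at -0.67 ± 0.19 and Vamp1 at -0.47 ± 0.19. The median was -0.12, against -0.00 for all genes. Chromaffin markers had a median difference of -0.82 with 0 of 11 called.

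Averaged over both states, the insulin effect was called for 0 of 41 members in limma (0.41% of all genes passed), and 6 had an unadjusted p under 0.05, 5 lower and 1 higher. Sv2c (-0.61 ± 0.49), Syt1 (-0.60 ± 0.19), Cadps (-0.58 ± 0.19), Napb (-0.50 ± 0.28), Rab3b (-0.46 ± 0.16) and Syt11 (-0.43 ± 0.23) had the largest changes, with adjusted p from 0.284 to 0.729. Without animal 2, Sv2c was at -0.0082 ± 0.09, Napb at -0.18 ± 0.10, Syt11 at -0.20 ± 0.14, Syt1 at -0.40 ± 0.12 and Cadps at -0.39 ± 0.13. Syt1 passed with the neuron markers in the fit, for which the share of all genes is not given here. These 4 insulin contrasts share arrays with each other and with the comparisons of the states, so their values are not independent.

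**Figure D5:**
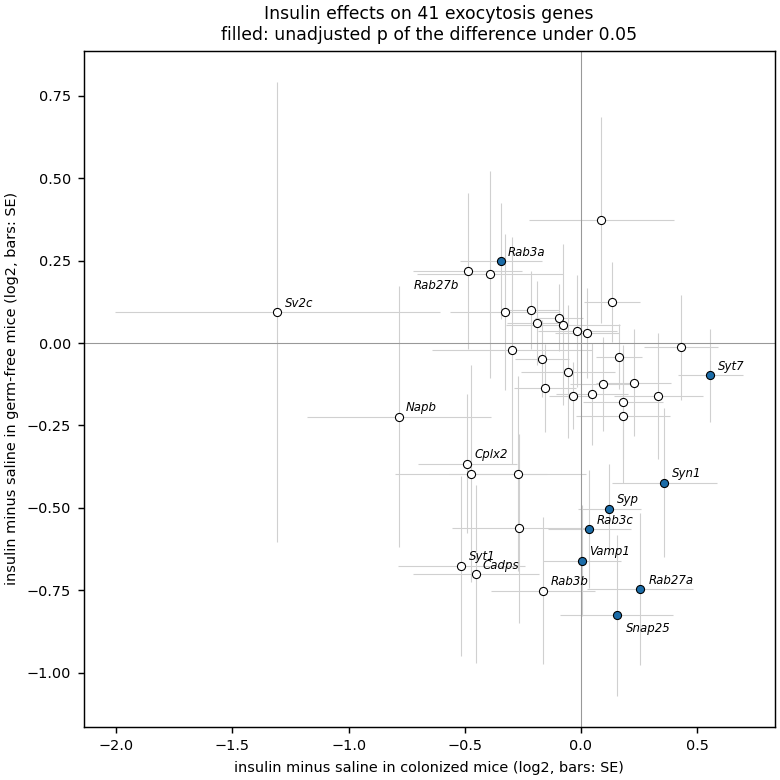
Insulin minus saline log2 difference in colonized (x axis) and in germ-free mice (y axis) for the 41 exocytosis genes; bars are standard errors, and filled points have an unadjusted p of the difference under 0.05. Sv2c lies far left, a value that rests on animal 2, and Snap25, Rab27a, Vamp1 and Rab3c lie below 0 for germ-free mice and at or above 0 for colonized mice. Without animal 2 the colonized values were -0.07 for Rab27a, -0.19 for Vamp1 and -0.09 for Rab3c, while Snap25 was at 0.29.

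Other genes of the exocytosis machinery were set beside the members: 73 further SNAREs, synaptotagmins, Rab3 and Rab27 regulators, scaffolds, vesicle proteins and exocyst subunits, of which 70 had a probe set. For the germ-free effect averaged over treatments 17 of the 70 passed (24.3%, 15 lower and 2 higher, where 17.6% of all genes passed). Syngr3 (a synaptogyrin of the vesicle membrane) and Syt17 had the largest changes, -1.14 ± 0.29 and -1.14 ± 0.19. Scamp5, a secretory carrier membrane protein, changed by -0.91 ± 0.11 and Stx6, a syntaxin of the trans-Golgi network, by -0.77 ± 0.08. Rims3, Rimbp2, Svop, Syngr1, Dnajc5, Madd, Rabac1, Snap47, Stx2, Exoc6 and Exoc7 were lower by less, and Rab3gap2 and Rims4 were higher. The median was -0.13.

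After saline 4 of the 70 were lower (Stx6, Scamp5, Stx2 and Exoc6), which is 5.71% where 4.09% of all genes were lower. After insulin 7 were lower (Syt17, Syn3, Scamp5, Stx6, Rims3, Svop and Exoc7), which is 10% where 5.15% of all genes were. No gene of the 70 was called higher after either treatment. Insulin gave 0 calls among the 70 in all 4 insulin contrasts in limma, with 5 to 12 at an unadjusted p under 0.05. Syn3, the third synapsin gene, had opposite differences in the 2 states, 0.73 ± 0.21 in colonized mice and -0.59 ± 0.21 in germ-free ones, with a difference of -1.32 ± 0.30 that did not pass (adjusted p = 0.172).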

How the data were processed

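The files hold RMA log2 intensities of 28846 probe sets on 12 arrays, as deposited by the authors; the submitters' processing notes name RMA and limma without versions, and do not say whether all arrays were normalized together. No value was transformed further. The platform annotation paired 19572 probe sets with 1 gene symbol and 9274 with none, which gave 19505 genes (the probe set with the highest mean for each). Group means of 3 animals were fitted on all 12 arrays with limma 3.58.1 in R 4.3.3 (lmFit and eBayes, 8 residual and 4.08 prior degrees of freedom, no filter on dim values). For each of 7 contrasts a Benjamini-Hochberg adjustment ran over all 19572 of these, with calls under 0.05; errors of changes are standard errors. The number of arrays limits the precision, and replicates are single animals.

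The members, gene lists, marker lists and tests were chosen with earlier results of these data known. Named were every called member and the 6 largest changes in each contrast, 8 standard members (Snap25, Vamp2, Stx1a, Syt1, Syt4, Syt7, Rab3a and Cadps), and called genes and the 2 largest changes of the other exocytosis list; Rims1, Rims2, Vamp3, Sv2b, Rab3c in the insulin contrasts and other members given in counts of 5 or fewer were named after their values were seen. Alternatives were all rows, a filter on dim probe sets, a second quantile normalization, median centring, a single probe set for each gene, trend and robust fits, array weights, marker covariates, compared groups alone, 2 other thresholds and leaving out each animal; covariates for neuron markers and negative controls were added after the data were seen. Fits were tested on simulated data. Protein sequences were not used here.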

Additional observations from a re-analysis of the deposited data

Results flagged for a closer look

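The negative control probe sets, which no comparison uses, differed between the states: the mean over arrays of the array median was 4.75 ± 0.05 (SD, n = 6) in colonized and 5.42 ± 0.08 (SD, n = 6) in germ-free animals, a difference of 0.67. No germ-free array overlapped a colonized one. With the array median of these controls as a covariate, 0 members and 0 of all genes passed for the mean germ-free effect. The members' median was then 0.14 in place of -0.52. The covariate correlated with the germ-free state at r = 0.983, so this fit cannot separate the controls from the state. The part of this shift in the members' values was not tested otherwise.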

How the results depend on the processing

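Precision is limited by 3 animals a group, and 24 of the 41 members were not above the 95th percentile of the negative controls on every array. No paired analysis was possible because the groups share no replicate numbers. Counts of called members moved as follows, and the share of all genes that passed moved between settings too. After saline that share was 9.45% with the second quantile normalization, where the main fit had 6.88%. It was not counted for the compared groups alone. Where a share is not given for a setting, its count of members is not set against a background. For insulin in germ-free mice the 0 became 8 with array weights and 2 with cortex markers, with neuron markers or with the compared groups alone, and for the mean insulin effect 1 with neuron markers. For germ-free against colonized after saline the 6 became 10 with a second quantile normalization or adipocyte markers, 3 with chromaffin markers, 2 with neuron markers, 0 with cortex markers or negative controls, 1 with the compared groups alone, 13 at an adjusted p under 0.1 and 2 under 0.01. After insulin the 15 became 0 with adipocyte markers, chromaffin markers or negative controls and 5 under 0.01. For the mean of both treatments the 21 became 6 with cortex, 12 with adipocyte, 0 with chromaffin and 13 with neuron markers, 0 with negative controls and 13 under 0.01. Several of these marker levels did not overlap between the compared groups, as given above, so those fits cannot fully separate markers from the state.

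Leaving out 1 animal at a time gave 0 to 0 calls for insulin in colonized mice, for the difference and for the mean insulin effect, 0 to 2 for insulin in germ-free mice, 2 to 11 after saline, 5 to 20 after insulin and 17 to 22 for the mean germ-free effect. With negative controls as a covariate the members' median turned to 0.27 after saline, 0.12 after insulin and 0.14 for the mean of both. That covariate is nearly collinear with the germ-free state (r = 0.983), so these values cannot separate the controls from the state.

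In the same nearly collinear fit with negative controls, 14 members lay below 0 after saline, 19 after insulin and 16 for the mean, in place of 31, 32 and 33. Named members turned sign with these marker covariates. With cortex markers, the insulin effect in colonized mice became 0.16 for Syt1, 0.44 for Sv2c and 0.17 for Napb, the mean insulin effect 0.12 for Sv2c, the germ-free effect after saline 0.50 for Syt9, 0.048 for Syt11, 0.34 for Cplx1 and 1.40 for Sv2c, and its mean 0.046 for Syt1, 0.11 for Syt9 and 0.086 for Cadps. With chromaffin markers, the difference of the insulin effects became 0.0066 for Vamp1 and -0.45 for Sv2c, the germ-free effect after insulin 0.30 for Rab3c and 0.0069 for Rab27a, and its mean 0.017 for Syt7, 0.15 for Rab3c and 0.042 for Rab27a. The difference for Sv2c became -0.65 with cortex and -0.19 with adipocyte markers, and its germ-free effect after saline 0.49 with neuron markers. The cause was not tested. The fit to the compared groups alone could not be made for the difference and the means, which use all 4 groups, and a mean over several probe sets was not run because each member has 1.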
